A study of Mus musculus with 9 samples.

Results

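The 10 genes described here belong to the Bcl2 family and were followed in the lactating mouse mammary gland with and without a human NAG-1 transgene. Bcl2, Bcl2l1 and Mcl1 are survival members, and Bax, Bak1, Bad, Bid, Bcl2l11, Bbc3 and Pmaip1 are death members. A probe was taken as a member when the gene name in the array's design equaled one of these 10 symbols. This gave 19 probes, 8 of survival members and 11 of death members, out of 41174 probes that carry 27962 distinct names. Mammary gland number 4 was taken on lactation day 2 (L2) from 4 wild type (WT) dams and from 5 transgenic dams that express human NAG-1 (hNAG-1), a secreted protein of the TGFβ superfamily also called GDF15. The transgene is expressed in all tissues rather than in 1 cell type of the gland, the labels do not say from which transgenic line the dams came, and the strain background of both genotypes is labeled C57BL/7. Dams of both genotypes had been bred through 4 litters, each gland was processed singly as whole tissue, and 1 array was hybridized for each dam. The comparison asks whether the transcripts of genes that restrain or promote cell death differed between glands of the 2 genotypes.

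Mitochondrial apoptosis is decided by binding among Bcl2 family proteins. Bax and Bak1 form pores in the outer mitochondrial membrane, the survival members hold them in check, and the BH3-only members Bad, Bid, Bcl2l11, Bbc3 and Pmaip1 bind survival members or activate the pore formers in response to stress, loss of growth factors or DNA damage. In the mammary gland the family is best known from involution, when milk-producing epithelium dies after weaning, and Mcl1 is needed to keep that epithelium alive during lactation. Much of this control acts on the proteins, through phosphorylation, cleavage and degradation, which arrays of RNA do not measure.

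Values are given as scaled intensity, the background-subtracted fluorescence of a probe after each array was brought to the same 75th percentile. Differences are log2 fold changes, hNAG-1 minus WT, and a call required an adjusted p under 0.05 from limma with Benjamini-Hochberg adjustment over all 41174 probes. Unadjusted p-values under 0.05 were counted beside it, and single genes were also tested by a two-sided exact permutation test of the 9 dams, in which 126 splits are possible and the smallest p is 0.00794. The 9 arrays came from 3 slides. WT 1 was alone on slide 1, hNAG-1 1 to 4 shared slide 2, and hNAG-1 5 shared slide 3 with WT 2, WT 3 and WT 4, so only slide 3 compares the genotypes within a slide. The 75th percentile of the deposited intensities ranged from 509 to 1133 between arrays, and 59.1% to 75.6% of probes were well above background. The 11 markers of secretory luminal epithelium, milk protein genes among them, were detected in this way in all 9 dams. Of the 19 Bcl2 family probes, 18 were well above background on all 9 arrays, and so was the brightest probe of each of the 10 genes. None was saturated. Intensities of different probes depend on probe sequence and were not compared with each other.

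Several genes were measured at more than 1 place, and the sequences of 6 probes are shown to tell apart the probes of Bcl2l1, Bad and Bcl2l11, whose values are given side by side. Each line gives bases 1 to 30 of a probe of 60 bases, in lower case, as deposited. Capitals mark bases that code for part of the BH3 core of Bcl2l11, the short helix with which BH3-only proteins bind survival members.
Bcl2l1 A_52_P148861: ttattccttgtgaagatgatatactatttt
Bcl2l1 A_52_P510877: attggtgagtcggattgcaagttggatggc
Bcl2l1 A_51_P299454: agacccagtaagtgagcaggtgttttggac
Bad A_52_P614762: tgaacctggcggttcagaaactttggtgtg
Bad A_51_P419364: gagcaataaccatcgcaacgaccattgcat
Bcl2l11 A_51_P484880: ggATCGGAGACGAGttcaacgaaacttaca

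The array's design places these probes on mouse build mm7. The Bcl2l1 probes lie on the minus strand at chr2:152521752-152521811, chr2:152570306-152570365 and chr2:152570851-152570910, so that the first lies 48494 bases downstream of the second, while only 485 bases separate the second and the third. All of these Bcl2l1 probes carry the accession NM_009743. The Bad probes lie 8916 bases apart. A_51_P419364, with accession NM_007522, is on the plus strand at chr19:6761992-6762051, and A_52_P614762, with accession AK029400, is on the minus strand at chr19:6770968-6771027. RefSeq (assembly GRCm38.p6) places Bad on the plus strand, so the second probe is listed on the strand opposite to its gene, whereas the listed strand matched RefSeq for 17 of the 18 probes whose gene had an entry. The Bcl2l11 probe A_51_P484880 spans chr2:127888010-127899105 on the plus strand, which is 11096 bases of genome for 60 bases of probe and therefore crosses an intron. Placement in coding exons or untranslated regions was not determined here for the other probes.

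No Bcl2 family gene differed between the genotypes at an adjusted p under 0.05. By the brightest probe of each gene, 0 of 10 genes passed the adjusted p in limma and 0 of 10 passed an unadjusted p under 0.05, and the methods' test, an unmoderated fit of the same values, gave 0 as well at both thresholds. Over all probes 1 of 41174, or 0.00243%, passed the adjusted p and 2315, or 5.62%, the unadjusted p. Among the 19 probes, 1 had an unadjusted p under 0.05, a probe of Bcl2l1 that was higher in hNAG-1, and 0 were lower at that threshold. Over all probes 1.2% were higher and 4.42% lower at it. With slide as a fixed block 7.58% of all probes and 0 of the 10 genes passed the unadjusted p. The Bcl2l1 probe was also the only one of the 19 whose genotypes did not overlap, and genotypes did not overlap for 1.38% of all probes. Log2 fold changes of the 10 genes ranged from -0.79 for Bcl2 to 0.31 for Bcl2l1, and 4 were above and 6 below 0. Their median was -0.03, beside a median of -0.01 and quartiles of -0.32 and 0.19 over all probes. With each array scaled to its median the median of all probes was 0.20, and without scaling it was -0.16. With slide as a fixed block the median of all probes was 0.19. Signs of differences under about this size therefore carry no direction.

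**Figure D1:**
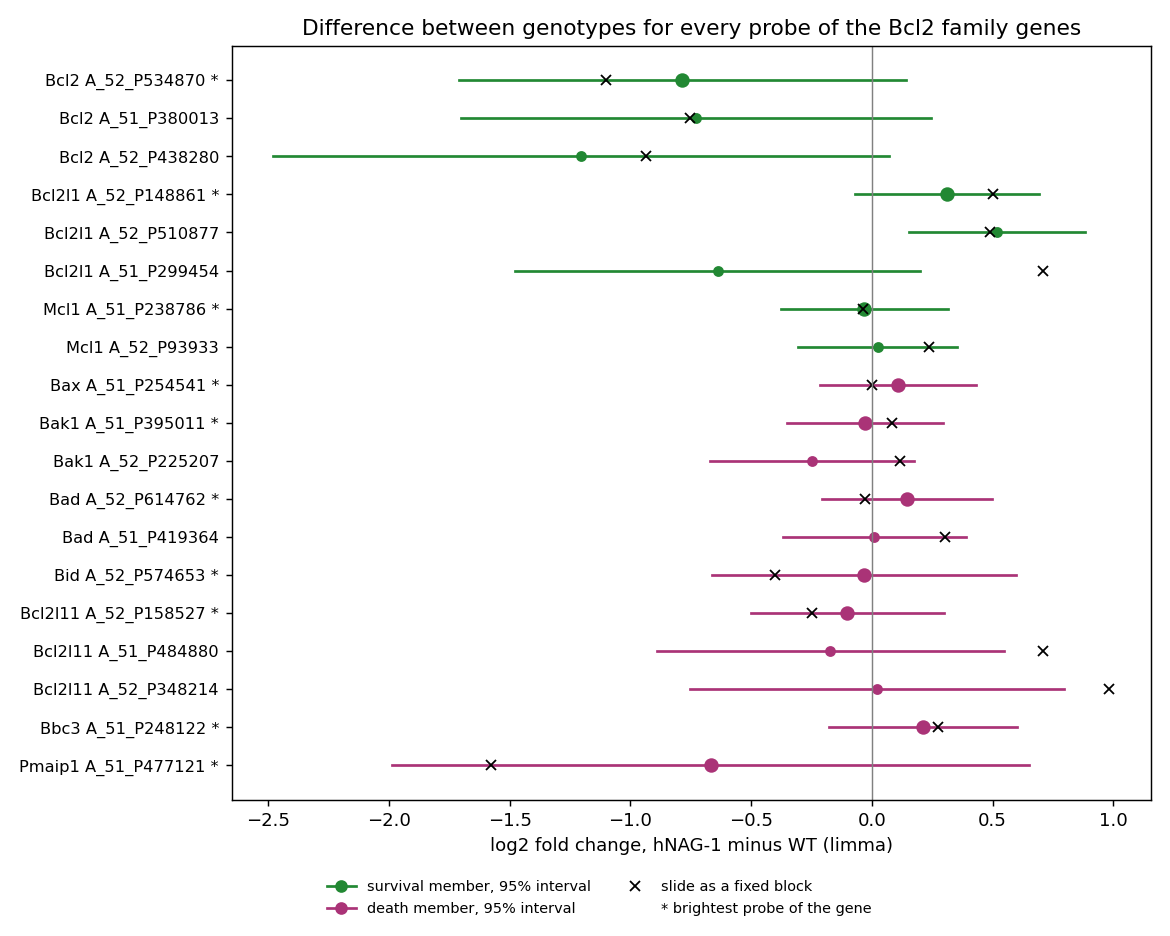
Log2 fold change, hNAG-1 minus WT, of all 19 probes of the 10 genes, with bars for 95% intervals from limma and crosses for the value with slide as a fixed block. The interval excludes 0 for 1 probe, A_52_P510877 of Bcl2l1, and the crosses lie on the other side of 0 for 5 probes, A_51_P299454 of Bcl2l1 and A_51_P484880 of Bcl2l11 among them. A_52_P348214 of Bcl2l11 is near background.

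Bcl2, the founding survival gene, varied widely between WT dams. The 10 spots of its brightest probe (A_52_P534870, NM_009741, chr1:106438098-106438157, minus strand) gave mean scaled intensities of 275, 1023, 272 and 256 in WT 1 to 4. In hNAG-1 1 to 5 they were 194, 177, 234, 310 and 193. WT 2 stood 3.72-fold above the next WT dam, the other WT dams lay close together, and 4 of 5 hNAG-1 dams lay below every WT dam, hNAG-1 4 being the exception. For Bcl2 this gave a log2 fold change of -0.79 (standard error 0.41, 95% interval -1.71 to 0.14, adjusted p = 0.654 by limma with Benjamini-Hochberg adjustment), and the exact permutation p was 0.0635. Without WT 2 the log2 fold change was -0.30 (standard error 0.20), and over the other dams left out in turn it reached -0.97. The SD of the log2 values was 0.97 in WT, 0.057 in WT without WT 2 and 0.32 in hNAG-1, while the 10 spots within an array had a median SD of 0.069.

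Both other Bcl2 probes had WT 2 as their highest array. A_51_P380013 (NM_177410, a second Bcl2 transcript record, chr1:106612249-106612308) gave 377, 1009, 202 and 214 in WT and 218, 180, 227, 254 and 209 in hNAG-1, with a log2 fold change of -0.73 (exact permutation p = 0.151). For A_52_P438280 (AK077913, chr1:106610589-106610648) the values were 155, 433, 46.6 and 78.1 in WT and 40.5, 42.0, 62.7, 72.8 and 60.9 in hNAG-1, with a log2 fold change of -1.20 (exact permutation p = 0.0794). With normexp background correction the log2 fold change of A_52_P438280 was -0.69. At both probes WT 1 was the second highest dam and WT 3 and WT 4 lay within or near the hNAG-1 range. Without WT 2 these differences were -0.23 and -0.61, and without WT 3 they were -1.0 and -1.68, both then with an unadjusted p under 0.05. The brightest probe and the other 2 did not differ from each other in their fold change beyond the spread of the dams, with differences of -0.06 (exact permutation p = 0.762) and 0.42 (exact permutation p = 0.278).

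**Figure D2:**
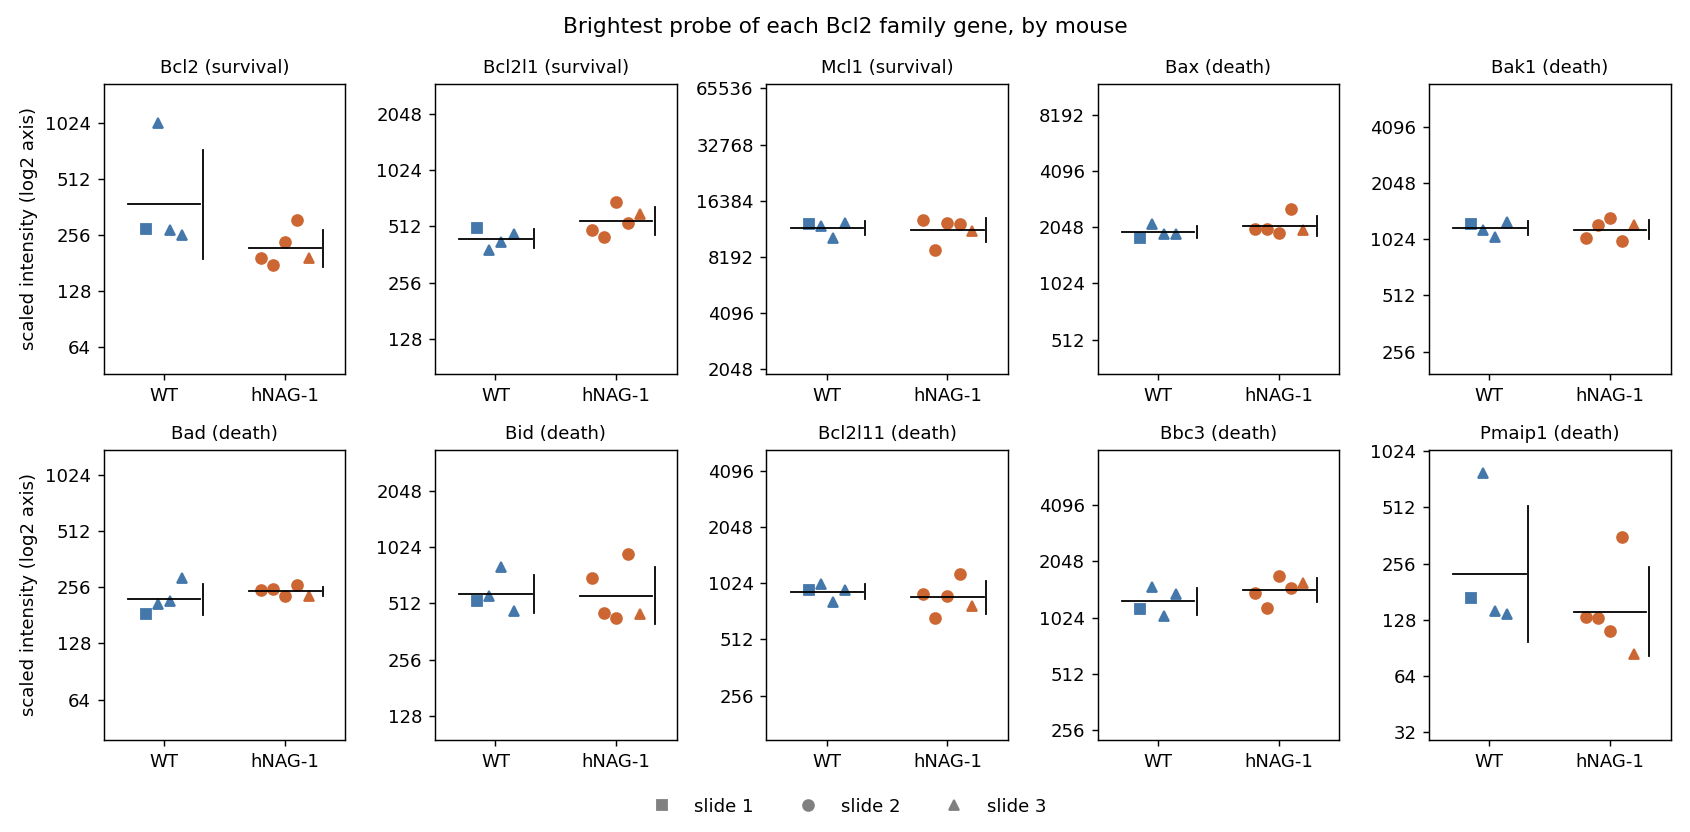
Scaled intensity (log2 axis) of the brightest probe of each of the 10 genes in 4 WT and 5 hNAG-1 dams, each point a dam, its shape the slide, horizontal lines the mean of log2 values and vertical lines 1 SD. Each axis covers the same range of folds, so the spread can be compared between panels, and single high dams are seen in WT for Bcl2 and in both genotypes for Pmaip1.

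Bcl2l1 encodes Bcl-xL, the survival protein of many epithelia, and its 3 probes did not move together. The brightest probe (A_52_P148861, 10 spots) gave 504, 384, 420 and 464 in WT 1 to 4 and 489, 450, 695, 533 and 596 in hNAG-1 1 to 5. Here 3 of 5 hNAG-1 dams lay above every WT dam and the genotypes overlapped. This amounted to a log2 fold change of 0.31 (standard error 0.17, 95% interval -0.07 to 0.69, adjusted p = 0.654 by limma), with an exact permutation p of 0.0794. Leaving out single dams moved it between 0.22 and 0.38. Median scaling gave 0.52 with an unadjusted p under 0.05, a threshold that 3608 of all 41174 probes passed with that scaling. No scaling gave 0.16, and the mean over the 3 Bcl2l1 probes gave 0.06.

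The Bcl2l1 probe A_52_P510877 gave 55.1, 53.8, 66.5 and 69.8 in WT and 74.1, 103, 98.5, 76.6 and 88.4 in hNAG-1. All 5 hNAG-1 dams were above all 4 WT dams. Slide 2 held no WT dam, so only hNAG-1 5 on slide 3 was compared with WT within a slide. Its log2 fold change was 0.52 (standard error 0.16, 95% interval 0.15 to 0.88), with an exact permutation p of 0.0159. The adjusted p was 0.654 by limma with Benjamini-Hochberg adjustment, so the probe did not pass the call. Without single dams the value ranged from 0.46 to 0.58. With slide as a fixed block it was 0.49 (standard error 0.31, unadjusted p = 0.149 by limma), without scaling 0.37 (unadjusted p = 0.301 by limma), with normexp background correction 0.35, with quantile normalization 0.74 and with median scaling 0.73. On slide 3 the value of hNAG-1 5 was 88.4 against 53.8 to 69.8 in the 3 WT dams of that slide.

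A_51_P299454, listed 485 bases away, gave 94.4, 97.1, 79.3 and 104 in WT 1 to 4 and 57.1, 36.9, 55.0, 43.9 and 152 in hNAG-1 1 to 5. The 4 hNAG-1 arrays of slide 2, at 36.9 to 57.1, were below all other arrays, which ranged from 79.3 to 152, and hNAG-1 5 on slide 3 was the highest of all. The log2 fold change of this Bcl2l1 probe was -0.64 (standard error 0.37, exact permutation p = 0.167), and with slide as a fixed block it was 0.71, of the opposite sign. With normexp background correction it was -0.22 and after quantile normalization -0.34. Without hNAG-1 5 it was -0.97 (standard error 0.19, adjusted p = 0.0618 by limma with Benjamini-Hochberg adjustment), which leaves only slide 2 in hNAG-1. A replicate block, which drops the same dam, gave the same value with an unadjusted p of 0.00562 and an adjusted p of 0.164 by limma. Its fold change differed from that of the brightest Bcl2l1 probe by 0.95 on the log2 scale (exact permutation p = 0.0635). Slide 2 carried only hNAG-1 dams, so for this probe slide and genotype cannot be told apart outside slide 3. On slide 3 hNAG-1 5 lay above the 3 WT dams at all 3 Bcl2l1 probes.

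**Figure D3:**
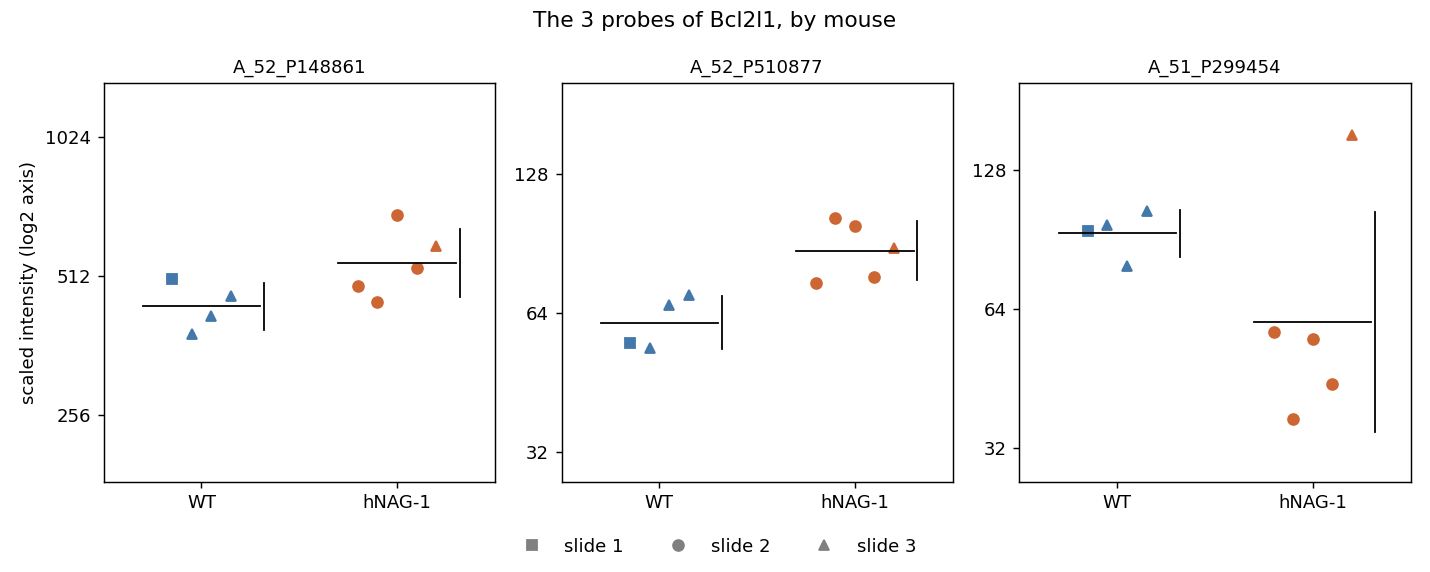
Scaled intensity (log2 axis) of the 3 Bcl2l1 probes in each dam, with the slide as the shape of the point, the mean of log2 values as a horizontal line and 1 SD as a vertical line. A_52_P510877 separates the genotypes, while at A_51_P299454 the 4 circles of slide 2 lie below the other 5 dams and the hNAG-1 dam of slide 3 is the highest.

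Mcl1, whose protein turns over rapidly and protects the lactating epithelium, had fold changes near 0 at both probes over all dams. The probe A_51_P238786 (chr3:95536882-95536941, plus strand) ranged from 10347 to 12480 in WT and from 8944 to 12887 in hNAG-1. It had a log2 fold change of -0.03 with a 95% interval of -0.38 to 0.31 (exact permutation p = 0.810). A_52_P93933 gave 0.02 with an interval of -0.31 to 0.35. The sign of the first probe changed with median scaling, which gave 0.18, and the other probe was at 0.23 both with median scaling and with slide as a fixed block.

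The pore-forming members Bax and Bak1 gave small differences. The 10 spots of the Bax probe (A_51_P254541, chr7:41641827-41641982, minus strand, 156 bases of genome) averaged 1798, 2136, 1888 and 1887 in WT and 1992, 2000, 1897, 2576 and 1968 in hNAG-1. One dam, hNAG-1 4, lay above the others, and the genotypes overlapped. For Bax the log2 fold change was 0.11 (standard error 0.14, 95% interval -0.21 to 0.43, exact permutation p = 0.389), which was -0.04 without scaling, 0.32 under median scaling and 0.00067 with slide as a fixed block. Without hNAG-1 4 it was 0.03. Bak1 was measured by A_51_P395011, which ranged from 1058 to 1268 in WT and from 997 to 1325 in hNAG-1, with a log2 fold change of -0.03 (95% interval -0.35 to 0.29) that was 0.18 under median scaling. The second Bak1 probe, A_52_P225207, gave 378, 367, 389 and 439 in WT and 414, 275, 280, 285 and 431 in hNAG-1. Low values were those of hNAG-1 2 to 4, all on slide 2, and the log2 fold change of -0.25 (exact permutation p = 0.175) became 0.12 with slide as a fixed block.

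Among the BH3-only members, Bbc3, which encodes Puma, had the largest value above 0. Its probe (A_51_P248122, chr7:14080459-14080518, plus strand) gave 1134, 1501, 1048 and 1365 in WT and 1392, 1151, 1712, 1475 and 1562 in hNAG-1. hNAG-1 3 and hNAG-1 5 exceeded every WT dam and the other hNAG-1 dams lay within the WT range. For Bbc3 the log2 fold change was 0.21 (standard error 0.17, 95% interval -0.18 to 0.60, exact permutation p = 0.183), which ranged from 0.13 to 0.30 without single dams and was 0.06 without scaling and 0.42 under median scaling.

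Bad, held inactive by phosphorylation when growth factors are present, had 2 probes under its name, listed on opposite strands. The brighter one, by which Bad is counted, was not shown to read the Bad transcript. The brighter probe, on the strand opposite to the gene, gave 183, 209, 215 and 286 in WT and 247, 249, 230, 263 and 230 in hNAG-1, so that all hNAG-1 dams lay within the WT range. Its log2 fold change was 0.14 (exact permutation p = 0.310), and it was -0.01 without scaling, 0.36 under median scaling and -0.03 with slide as a fixed block. Without WT 1 it was 0.06 and without WT 4 it was 0.27. The probe of NM_007522, on the strand of Bad, ranged from 77.8 to 97.7 in WT and from 73.5 to 106 in hNAG-1. Its log2 fold change was 0.01 with a 95% interval of -0.37 to 0.39, and it was 0.30 with slide as a fixed block and 0.22 after quantile normalization.

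Bid, which links death receptors to mitochondria, varied within both genotypes. Its probe (A_52_P574653, chr6:120918747-120918806, minus strand) gave 527, 557, 802 and 467 in WT and 701, 452, 426, 936 and 449 in hNAG-1. High values occurred in WT 3, hNAG-1 1 and hNAG-1 4, and 3 of 5 hNAG-1 dams lay below every WT dam. Its log2 fold change of -0.03 had a 95% interval of -0.66 to 0.60, which is wide enough to hold differences of either sign, and under median scaling it was 0.18. With slide as a fixed block it was -0.40, and without single dams it ranged from -0.22 to 0.13.

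Bcl2l11 encodes Bim, which acts when growth factors or attachment are lost. The brightest of its 3 probes (A_52_P158527, NM_207680, chr2:127903168-127903227, plus strand) ranged from 813 to 1015 in WT and from 670 to 1154 in hNAG-1, with a log2 fold change of -0.10 (95% interval -0.50 to 0.30) that was 0.11 under median scaling and -0.25 with slide as a fixed block. Without hNAG-1 2 it was -0.01 and without hNAG-1 4 it was -0.21. The probe across the BH3 core shown above gave 91.0, 112, 73.0 and 77.5 in WT and 71.5, 43.5, 97.9, 64.5 and 140 in hNAG-1. Its log2 fold change was -0.17 (exact permutation p = 0.635), and with slide as a fixed block it was 0.71, hNAG-1 5 on slide 3 being the highest dam. The last Bcl2l11 probe, A_52_P348214, crosses 682 bases of genome and was detected well above background in 1 of 4 WT dams and 1 of 5 hNAG-1 dams. It gave 15.2 to 23.2 in WT and 10.5 to 36.4 in hNAG-1, hNAG-1 5 again being the highest. Its log2 difference of 0.02 had a 95% interval of -0.75 to 0.80, and with so few detections no direction is read from it under any setting.

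Pmaip1, which encodes Noxa and is induced by p53 and by stress, resembled the brightest Bcl2 probe in its pattern over the dams. Its probe, A_51_P477121, gave 168, 783, 143 and 138 in WT 1 to 4 and 132, 131, 112, 356 and 83.5 in hNAG-1 1 to 5. WT 2 stood 4.67-fold above the next WT dam, hNAG-1 4 was the second highest of all, and the other 4 hNAG-1 dams lay below every WT dam. For Pmaip1 the log2 fold change was -0.67 (standard error 0.59, 95% interval -1.99 to 0.65, exact permutation p = 0.373). Without WT 2 it was -0.07 and without hNAG-1 4 it was -1.0. With slide as a fixed block the log2 fold change was -1.58.

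WT 2 and hNAG-1 4, highest and second highest for Pmaip1 and at the brightest Bcl2 probe, also had the highest summed lymphocyte markers. At the other Bcl2 probes hNAG-1 4 lay below WT 1. Gland number 4 contains a lymph node, and lymphocytes depend on Bcl2 for survival. Summed scaled intensities of the 13 lymphocyte markers, from Cd79a of B cells to Cd3e and Cd8a of T cells, were 13757, 84978, 4391 and 3507 in WT 1 to 4 and 3904, 2792, 3072, 14781 and 4630 in hNAG-1 1 to 5. WT 2 was 5.75-fold above the next dam, which was hNAG-1 4, and WT 1 followed closely. The 6 macrophage markers summed to 203180 in hNAG-1 4, 146700 in WT 2 and 127548 in WT 3, but Lyz2 made up most of each sum, at 186344, 138204 and 118973. With each marker centered on the log2 scale and the 6 averaged, hNAG-1 4 was the highest dam at 0.93, while WT 2 at 0.42 was close to WT 4 at 0.39 and WT 3 at 0.33. Cd68, Csf1r and Lyz2 were highest of the WT dams in WT 2, and Emr1, Mrc1 and Cd163 in WT 3 or WT 4. All 13 lymphocyte markers had values below 0, from -1.72 for Cd22 to -0.17 for Cd3e, none passed an unadjusted p under 0.05, and 11 were well above background on every array. Their median log2 fold change was -1.23 and ranged from -1.81 to -0.34 when single dams were left out. The part of lymph node tissue or of macrophages in the Bcl2 and Pmaip1 values was not tested, and in whole tissue fewer cells of a type and less RNA per cell cannot be told apart.

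**Figure D4:**
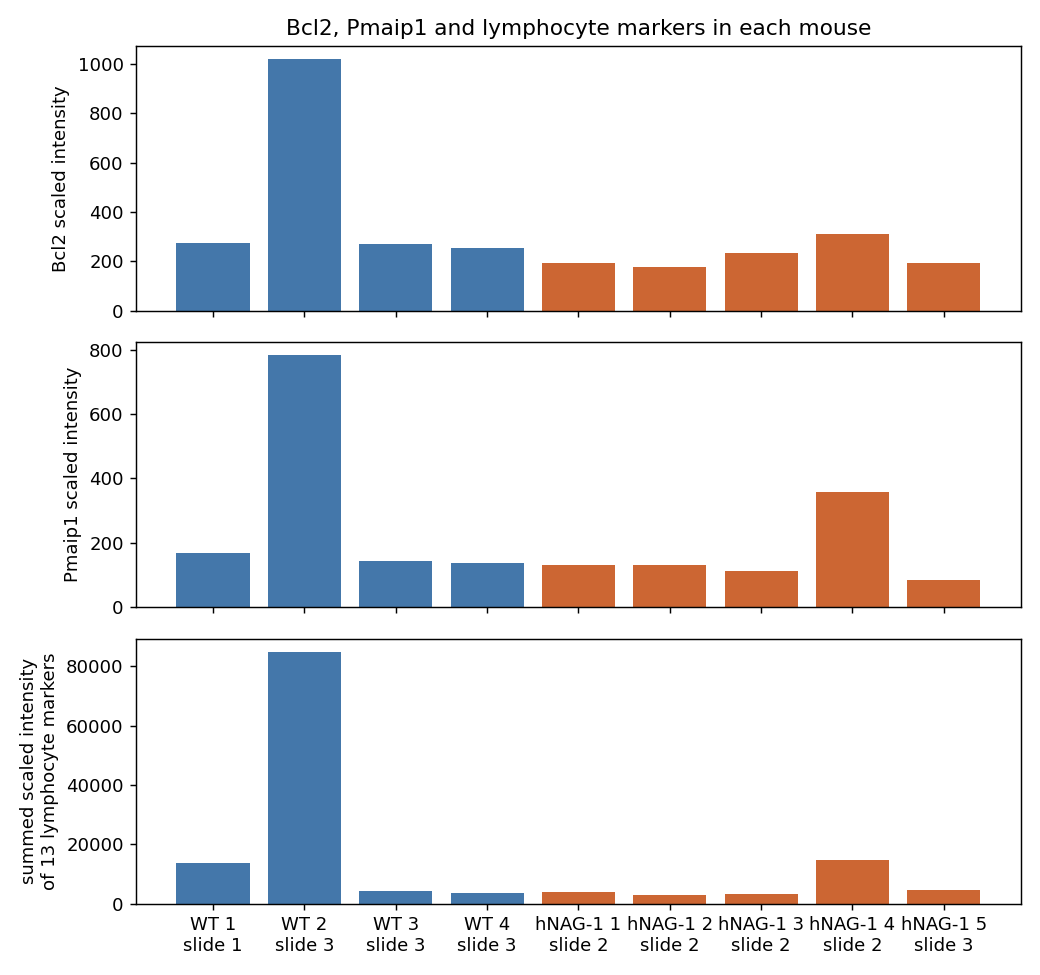
Scaled intensity of the brightest Bcl2 probe, of the Pmaip1 probe and of 13 lymphocyte markers summed, as bars from 0 for each of 9 dams with its slide. WT 2 is the highest dam in all 3 panels, at 1023, 783 and 84978, and hNAG-1 4 is the second highest in each.

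Survival members set against death members gave no separation of the genotypes. For each dam the log2 value of each gene was centered on its mean over the 9 dams, and the mean of the 7 death members was subtracted from the mean of the 3 survival members. The resulting differences were 0.14, 0.18, -0.05 and -0.01 in WT 1 to 4 and -0.11, -0.21, 0.21, -0.25 and 0.10 in hNAG-1 1 to 5. Both genotypes held dams above and below 0, and the WT mean of 0.07 ± 0.11 (SD, n = 4) lay within the spread of the hNAG-1 mean of -0.05 ± 0.20 (SD, n = 5). The survival members alone differed by -0.17 and the death members by -0.05, and no test was made on these means because the members were chosen with results known. The difference of -0.12 between the genotypes was 0.19 once Bcl2 was left out, -0.22 once Pmaip1 was left out, 0.09 once both were left out, and 0.06 with slide as a fixed block. Bad was counted by its brighter probe, listed on the strand opposite to the gene. With Bad by its other probe the difference was -0.098. Of the 3 survival members 1 was above 0 and 2 below, and of the 7 death members 3 were above and 4 below, with a median of -0.03 in both classes.

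**Figure D5:**
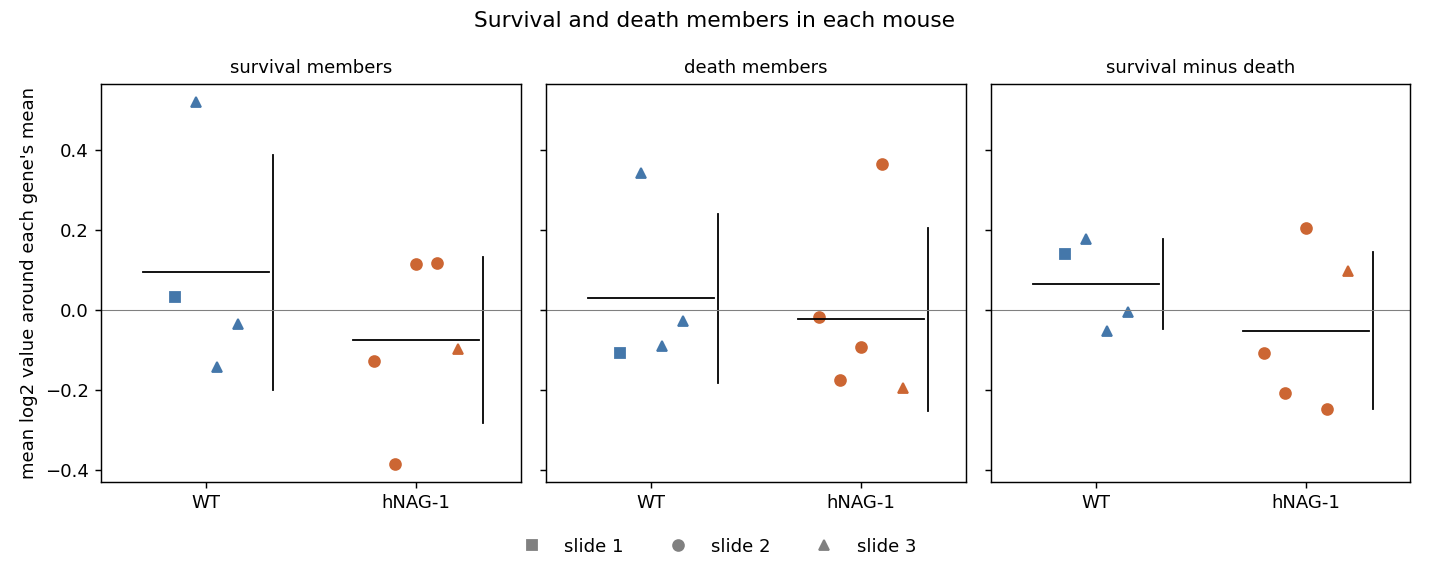
Mean centered log2 value of the 3 survival members, of the 7 death members, and their difference in each dam, with the slide as the shape of the point, the mean as a horizontal line and 1 SD as a vertical line. The genotypes overlap in all 3 panels, and WT 2 is the highest dam for the survival members while hNAG-1 4 is the highest for the death members.

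The rest of the family and of the pathway was read from lists of genes by role, and 0 genes of these lists passed the adjusted p by limma. Of 6 further survival genes 4 were matched, with a median log2 fold change of -0.02 that was -0.46 with slide as a fixed block and -0.21 without dim probes. Bcl2a1c, one of a set of nearly identical Bcl2a1 copies known from blood cells, gave 422 in WT 2 and 386 in hNAG-1 4 against 87.2 to 131 in the other dams, and its log2 fold change was -0.22. WT 2 was also the highest dam for Bcl2 and Pmaip1. For the brightest Bcl2 probe hNAG-1 4, at 310, was close to WT 1 at 275. Signal of the Bcl2a1 copies may be shared between their probes, so the Bcl2a1c values are uncertain. Bcl2l10 had the largest value above 0 but stayed near background on all 9 arrays, so no fold is given. With slide as a fixed block Bcl2a1c was at -0.99.

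The 7 further death genes had a median of 0.05, or -0.07 with slide as a fixed block, and Hrk alone had an unadjusted p under 0.05. Hrk is a BH3-only gene known from neurons, and its values ran from 13.9 to 25.2 in WT and from 4.2 to 14.4 in hNAG-1. The WT values were mostly higher, with WT 2 below hNAG-1 5. The exact permutation p was 0.0238 and the adjusted p 0.654 by limma, but Hrk was detected well above background in 1 of 4 WT dams and in 0 of 5 hNAG-1 dams, so no fold is given. Bmf, a BH3-only gene linked to loss of cell attachment, had the largest value above 0 among the further death genes, at 0.27 (exact permutation p = 0.254).

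Caspases and the apoptosome, 13 genes, were well above background throughout, with 7 above and 6 below 0 and a median of 0.06. With slide as a fixed block the caspase median was 0.18, beside 0.19 over all probes. Apaf1, the scaffold of the apoptosome, had the lowest value of that list, at -0.14 (exact permutation p = 0.540), and 0.08 with slide as a fixed block. The 8 inhibitors of caspases and their antagonists had a median of -0.16, which was 0.05 under median scaling and 0.08 with slide as a fixed block. Diablo, which releases caspases from inhibition, had the largest value at 0.20, and Naip1 the lowest, but Naip1 was detected well above background only in WT 2, so no fold is given. The 10 genes of the death receptor pathway had a median of 0.03, with 0.41 for the ligand Tnfsf10 and -0.51 for the ligand Fasl, which turned to -0.17 and 0.26 with slide as a fixed block. Of 18 regulators of the family, 13 were above and 5 below 0 with a median of 0.04. The kinase gene Akt1, whose product phosphorylates Bad, had the largest value at 0.43 (exact permutation p = 0.143), which was -0.03 with slide as a fixed block. Nfkb1, a transcription factor of immune and stress responses, had the lowest at -0.32 (exact permutation p = 0.0476, unadjusted p = 0.0798 by limma) and -0.41 with that block. The genotypes overlapped for Nfkb1. Over all probes 48.3% were above 0, and median scaling moved the medians of the further death genes, caspases, death receptor genes and regulators to 0.26, 0.27, 0.24 and 0.25, while without scaling they were -0.10, -0.09, -0.12 and -0.11. Leaving out single dams moved the medians between 0.01 and 0.10, 0.02 and 0.12, 0.002 and 0.10, and -0.02 and 0.11 in the same order, that of the caspase inhibitors between -0.23 and -0.06, and that of the further survival genes between -0.21 and 0.22.

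Markers of the other cell types gave the setting for these values. Luminal epithelium had 11 of 11 markers above 0 with a median of 0.06, adipocytes 8 of 8 with a median of 0.36, myoepithelium 6 of 6 with a median of 0.39, and endothelium 5 of 5 with a median of 0.24. Macrophages had 1 of 6 above 0 with a median of -0.10. Single dams moved several of these medians. Without WT 1 the adipocyte median was 0.074 and the luminal median 0.21, and without WT 2 the luminal, myoepithelium and macrophage medians were -0.07, 0.14 and 0.07. The macrophage median was -0.45 without WT 1. With slide as a fixed block the endothelium median was -0.24 and the macrophage median -0.51, and the adipocyte and myoepithelium medians were 0.15 and 0.18. Summed luminal and myoepithelium markers were both lowest in WT 2, the dam with the highest Bcl2, at 1255080 against 1640320 to 2330180 in the other dams for luminal and 59022 against 103145 to 143375 for myoepithelium. Among all of these markers 1, the smooth muscle myosin gene Myh11 of the myoepithelium list, had an unadjusted p under 0.05, with a log2 fold change of 0.48 (exact permutation p = 0.0238) that was 0.28 with slide as a fixed block, and 0 passed the adjusted p by limma. Myh11 is named here after its value was seen.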

How the data were processed

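RNA of mammary gland number 4 from 4 WT and 5 hNAG-1 dams on L2 was measured on 1-color Agilent arrays of 45018 features. The authors deposited Feature Extraction output (version 9.5.3.1 per the file headers, 9.5 in the submitters' processing notes) as intensity per feature, background-subtracted and not scaled between arrays. The deposited series table equaled it (largest difference 0).

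After 1639 control features were left out and repeated spots averaged, arrays were scaled to a common 75th percentile and log2 was taken. The lmFit and eBayes functions of limma (version 3.58.1, R version 4.3.3) compared the genotypes, two-sided, without covariates and with 7 residual degrees of freedom, with Benjamini-Hochberg adjustment over all 41174 probes. Exact permutation tests used Python with scipy version 1.17.1. Arrays have no depth, and precision is limited by their number. Between arrays, the dimmest probe well above background had a scaled intensity of 14.4 to 31.7. Scripts were tested on simulated data.

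Members and lists were chosen with earlier results of these data known. Every member is named with every probe. A gene counts by the probe with the highest mean. Of each list, genes with an adjusted p under 0.05, genes with an unadjusted p under 0.05 without overlap, and the largest rise and fall are named, except 1 gene that is not reported here. Of 111 list genes in 12 lists, 109 were measured, 10 by accession only. RefSeq (GRCm38.p6) gave names and strands, and 16 of 19 member accessions had the member's name there. Slides are those of the file headers. Alternatives changed the background correction (normexp, offset 50), the scaling (quantile, median or none), the source (series table), a floor of 20, a filter on dim probes, outlier features, the test (the methods' unmoderated test, or trend with robust eBayes), the slide (fixed block, random block, or only slide 3), single dams left out, a replicate block, and averaging over the probes of a gene. Leaving Bcl2 or Pmaip1 out of the balance, and Bad by its other probe, were added after the values were seen. The PCR and protein measurements of the study were not analysed here.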

Additional observations from a re-analysis of the deposited data

Results flagged for a closer look

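In 3 of the 40 groups of dams examined, 1 dam stood apart from the rest of its genotype, and chance flags about 1 in 20 such groups. The measure is the gap between that dam and its nearest neighbor as a share of the whole range of the group on the log2 scale. For the brightest Bcl2 probe, WT 2 was separated from the other WT dams by 0.948 of the WT range, with scaled intensities of 1023 against 256 to 275. For Pmaip1 the same dam was separated by 0.888 of the WT range, at 783 against 138 to 168. For Bax, hNAG-1 4 was separated from the other hNAG-1 dams by 0.827 of their range, at 2576 against 1897 to 2000.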

How the results depend on the processing

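Under all alternatives 0 of 10 genes passed the adjusted p, also with slide as a fixed block and without hNAG-1 5, where 137 and 215 of all probes passed by limma. The count at an unadjusted p under 0.05 was 0 except with median scaling, which gave 1 gene, Bcl2l1. With that scaling 3608 of all 41174 probes passed the same threshold by limma. With 1 dam left out both counts of the 10 genes stayed at 0. The survival minus death difference of -0.12 then ranged from -0.18 to -0.07. That difference was 0.059 with slide as a fixed block and on slide 3 alone, 0.19 without Bcl2, -0.22 without Pmaip1 and 0.089 without Bcl2 and Pmaip1. The cause of these shifts was not tested.

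Fold changes of single genes and probes had the opposite sign 45 times under alternatives. Quantile normalization turned Mcl1 A_52_P93933 to -0.042 and Bcl2l11 A_51_P484880 to 0.088. Median scaling gave 0.18 for Mcl1, Bak1 and Bid, 0.11 for Bcl2l11 and 0.039 for its probe A_51_P484880. Without scaling Bax was -0.042, Bad -0.0051, Bad A_51_P419364 -0.14, and Mcl1 A_52_P93933 -0.13. Slide as a fixed block, which rests on slide 3 and equals slide 3 alone, gave 0.083 for Bak1, -0.028 for Bad, 0.12 for Bak1 A_52_P225207 and 0.71 for both Bcl2l1 A_51_P299454 and Bcl2l11 A_51_P484880. The median of all probes was 0.19 with that block, above the values of both Bak1 probes. With 1 dam left out, ranges that crossed 0 were -0.093 to 0.057 for Mcl1, -0.078 to 0.025 for Bak1, -0.22 to 0.13 for Bid, -0.048 to 0.10 for Mcl1 A_52_P93933, -0.058 to 0.073 for Bad A_51_P419364 and -0.39 to 0.035 for Bcl2l11 A_51_P484880.

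The replicate numbers did not pair the dams, since the deviations of same-numbered dams correlated at 0.28, -0.20, -0.14 and -0.31. With a replicate block, which drops hNAG-1 5, the balance was -0.15, Bid 0.050, Mcl1 A_52_P93933 -0.0084 and Bad A_51_P419364 -0.056, and 0 of 10 genes passed either threshold. The block changed no call. Of all probes past the unadjusted threshold, 21.4% were above 0, against 53.6% with normexp correction, 57.5% with quantile normalization, 70.7% with median scaling, 2.86% without scaling and 90.6% with slide as a fixed block, where 7.58% of probes passed that threshold. Nearness to background limits Hrk, Naip1, Bcl2l10 and Bcl2l11 A_52_P348214. For that probe the sign changes, at -0.13 without scaling, -0.22 to 0.23 with 1 dam left out and -0.22 with the replicate block, are among the 45, but no dependence on processing is read from them, and the filter on dim probes gives it no value.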
